A study of Homo sapiens with 22 samples.

Results

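The 30 genes described here encode enzymes and regulators of sterol and fatty acid synthesis. They were chosen by symbol for their place in the pathway, all 30 were found among the 25343 genes of each table, and all 30 passed the filter on low counts in every test. Messenger RNA was measured in 22 libraries of human renal cancer cell lines grown in RPMI medium with 10% fetal bovine serum. In 16 libraries 786-M1A cells were under CRISPR interference (CRISPRi): a repressor fused to a Cas9 without cutting activity is brought by a guide RNA to the matching DNA. The guide was iMAE-1.1 in 4 of these, iMAE-1.2 in 4, iMAE-126 in 2 and the non-targeting control SC in 6. MAE in the guide names stands for metastasis-associated enhancer, and the labels do not name the element or gene that each guide addresses. The other 6 libraries came from cells without guides, 2 each of OS-LM1, 786-M1A and 786-O. 786-M1A is known from earlier work as a metastatic derivative of 786-O, a line of clear cell renal carcinoma, and OS-LM1 as a metastatic line of separate origin. It is not given whether any line or CRISPRi population is a single clone, or whether replicates are separate cultures, and p-values therefore speak of spread among libraries that may be technical.

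Cells build cholesterol from acetyl-CoA through the mevalonate arm, which ends in farnesyl pyrophosphate, and the squalene and sterol arm, which joins farnesyl units and trims the ring system. When sterols in the endoplasmic reticulum are scarce, the escort protein SCAP carries the transcription factors SREBF1 and SREBF2 (also called SREBP-1 and SREBP-2) to the Golgi, where they are cut and released to the nucleus. INSIG1 holds SCAP back when sterols are plentiful, and its gene is itself a target of these factors. SREBF2 acts mainly on genes of sterol synthesis and SREBF1 on genes of fatty acid synthesis and desaturation. Clear cell renal carcinoma is known for cytoplasm filled with lipid and glycogen.

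Promoter sequences were looked up for the 30 genes because a shared set of transcription factors is known to bind next to the start of many of them. A RefSeq window of 250 bases before to 50 bases after the start was at hand for 26 of 30 (build GRCh38.p14), and not for ACAT2, FDFT1, SQLE and FASN. The 4 windows below belong to genes called in 9 of the 11 comparisons of this report and are written on the strand of the gene. Some genes have several starts, 37 windows for the 26 genes, and DHCR7 and HMGCS1 each have another window without CCAAT that is not printed. Capitals mark each CCAAT (or ATTGG, its other strand), the letters of the CCAAT box bound by NF-Y, and each CACNCCAC (or its other strand), the core of the sterol regulatory element bound by SREBP.
DHCR7, chr11:71448344-71448643, minus strand: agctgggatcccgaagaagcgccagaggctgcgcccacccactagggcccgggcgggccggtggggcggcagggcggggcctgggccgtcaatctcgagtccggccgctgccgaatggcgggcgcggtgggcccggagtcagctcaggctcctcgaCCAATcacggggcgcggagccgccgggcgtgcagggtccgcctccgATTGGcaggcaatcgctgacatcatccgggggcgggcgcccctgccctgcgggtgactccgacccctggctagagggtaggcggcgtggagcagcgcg
FDPS, chr1:155308616-155308915, plus strand: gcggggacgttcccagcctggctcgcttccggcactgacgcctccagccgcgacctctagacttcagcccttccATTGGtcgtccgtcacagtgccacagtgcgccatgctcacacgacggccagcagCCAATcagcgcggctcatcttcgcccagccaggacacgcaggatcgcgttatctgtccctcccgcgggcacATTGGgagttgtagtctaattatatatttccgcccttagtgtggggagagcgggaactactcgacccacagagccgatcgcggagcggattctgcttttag
HMGCS1, chr5:43313363-43313662, minus strand: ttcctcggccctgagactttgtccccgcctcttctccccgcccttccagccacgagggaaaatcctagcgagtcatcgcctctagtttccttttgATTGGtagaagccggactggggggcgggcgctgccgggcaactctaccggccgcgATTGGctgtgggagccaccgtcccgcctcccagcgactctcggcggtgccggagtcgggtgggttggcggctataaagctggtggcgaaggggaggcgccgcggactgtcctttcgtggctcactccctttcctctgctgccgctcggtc
INSIG1, chr7:155297628-155297927, plus strand: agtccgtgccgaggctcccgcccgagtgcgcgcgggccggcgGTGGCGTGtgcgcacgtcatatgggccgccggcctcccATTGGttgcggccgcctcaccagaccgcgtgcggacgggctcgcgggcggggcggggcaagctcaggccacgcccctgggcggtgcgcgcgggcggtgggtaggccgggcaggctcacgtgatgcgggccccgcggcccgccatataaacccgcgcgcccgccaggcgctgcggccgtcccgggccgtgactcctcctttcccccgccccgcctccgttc

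CCAAT on either strand lay in the windows of 19 of 26 genes (73.1%), against 39.7% of all 27305 genes with a window (35116 windows), where a match in any window of a gene counts. CACNCCAC was found in 5 of 26 (19.2%), namely ACACA, IDI1, INSIG1, SCD and SREBF2, against 7.05% of all genes. The longer TCACNCCAC, which contains it, was found in SREBF2 alone among the 26 (3.85%, against 1.39% of all genes). CACGTG, the E-box, lay in 3 of 26 (11.5%, against 8.77%), and GGGCGG, the GC box bound by SP1, in 25 of 26 (96.2%, against 48.3%). A match of letters does not show binding, and the absence of one says only that these letters are not in the window.

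Library totals ran from 9.06 to 52.7 expected counts in units of 1e6. Levels are given as CPM, counts per 1e6 of a library's total scaled by TMM factors, and levels of different genes are compared only as TPM, which divides by gene length. The renal marker PAX8 stood at 87.1 to 262 TPM and VIM at 4592 to 8350 TPM in all libraries. CA9, a marker of clear cell renal carcinoma, was at or below 0.23 TPM in the libraries of 786-O and its derivatives and at 29.2 to 33.1 TPM in OS-LM1. Of 10 markers of other cell types, the highest value in any library was 1.43 TPM (PECAM1), and CD3E was at 0 in all 22. By the average length of the counted genes, the CRISPRi libraries form 2 sets without a name in the labels. This length was 3528 to 3716 bases for iMAE-126 with SC replicates 1 and 2, and 3264 to 3395 bases for both iMAE-1 guides with SC replicates 3 to 6. Within the first set it was 3528 and 3573 bases for iMAE-126, below the 3646 and 3716 bases of SC replicates 1 and 2. Each guide was therefore compared with the SC libraries of its own set, and results with all 6 SC libraries as 1 group are given beside several of these comparisons.

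**Figure D1:**
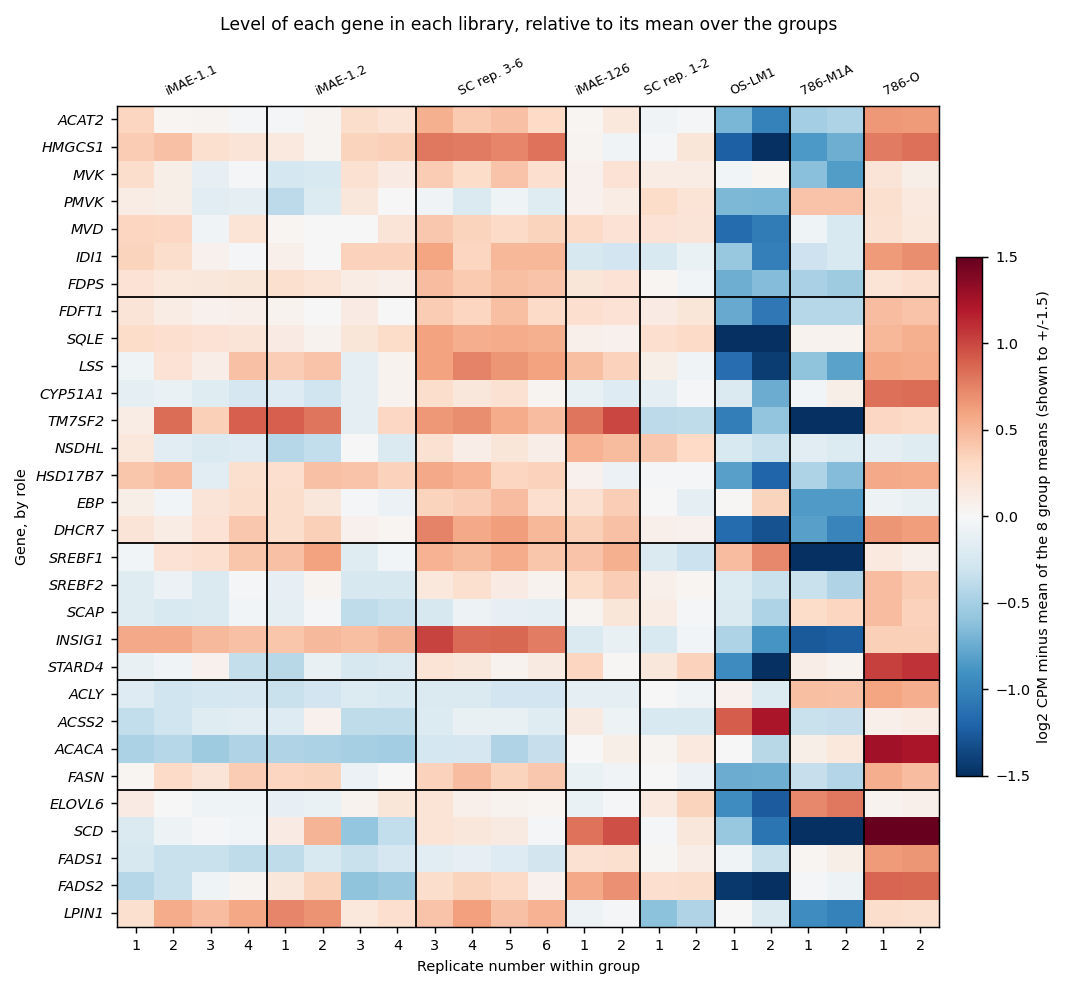
Level of the 30 genes in the 22 libraries, as log2 CPM minus the mean of the 8 group means, with SC shown as replicates 1 and 2 and replicates 3 to 6 (colour scale clipped at 1.5 in either direction). Genes run down the page by role, and the 786-M1A columns are below the 786-O columns for 27 of the 30 genes.

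The genes with the highest level per length in 786-M1A were ACLY, which makes cytosolic acetyl-CoA from citrate, at 322 and 321 TPM, FADS2, a fatty acid desaturase, at 160 and 155 TPM, and FDPS, the synthase of farnesyl pyrophosphate, at 154 and 149 TPM. In 786-O the order was led by SCD, which puts the first double bond into saturated fatty acids, at 406 and 430 TPM, followed by ACLY at 375 and 364 TPM. TM7SF2, a sterol reductase, was lowest in both lines, at 1.45 and 1.24 TPM in 786-M1A and 5.21 and 5.17 TPM in 786-O. Together the 30 genes held 0.193% and 0.191% of all TPM in 786-M1A, against 0.362% and 0.363% in 786-O. Their share was 0.153% and 0.134% in OS-LM1, 0.183% to 0.207% with the iMAE-1 guides, 0.24% and 0.255% in iMAE-126, and 0.225% to 0.242% in SC.

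The metastatic line had lower levels of most of these genes than its parent. Of the 30 genes, 25 were lower and 1 was higher in 786-M1A than in 786-O (edgeR quasi-likelihood test, Benjamini-Hochberg adjusted p under 0.05 over 16354 genes). Over all genes tested, 31% were called and 16.3% were called lower. The median log2 fold change was -0.88 over the 30 genes and -0.02 over all genes. For 27 of 30, both 786-M1A libraries lay below both 786-O libraries, as they did for 38.7% of all genes. Mean gene length was 3929 and 3982 bases in 786-M1A and 3909 and 3915 bases in 786-O, and of the 10 markers of other cell types 4 passed the count filter and 0 were called by edgeR, DESeq2 or limma (2 at an unadjusted edgeR p under 0.05). In bulk RNA, fewer cells of a type and less RNA per cell cannot be told apart.

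Among the regulators, SREBF1 stood at 24.4 and 21.2 CPM in 786-M1A, against 89.6 and 85.7 CPM in 786-O. The groups lay far apart, with a log2 fold change of -1.94 (SE 0.12, edgeR adjusted p = 1.95e-05). INSIG1 was at 94.2 and 96.1 CPM in 786-M1A, against 288 and 289 CPM in 786-O (log2 fold change -1.60, SE 0.15, adjusted p = 0.000164). SREBF2 fell to 132 and 121 CPM in 786-M1A, against 228 and 216 CPM in 786-O (log2 fold change -0.81, SE 0.11, adjusted p = 0.00105). SCAP gave 71.2 and 74.1 CPM in 786-M1A, against 81.5 and 74.8 CPM in 786-O, and was not called (log2 fold change -0.11, adjusted p = 0.532). STARD4, which moves sterol between membranes, was at 21.2 and 20.5 CPM in 786-M1A, against 40.5 and 42.1 CPM in 786-O. In all, 4 of the 5 genes for regulators and sterol transport were lower, and SCAP was the exception.

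In the mevalonate arm, 6 of 7 genes were lower, with a median log2 fold change of -0.87. HMGCS1, which condenses acetoacetyl-CoA to HMG-CoA, stood at 83.3 and 91.2 CPM in 786-M1A, against 259 and 268 CPM in 786-O. Its log2 fold change of -1.60 (SE 0.14, adjusted p = 9.66e-05) was the largest fall in the arm. ACAT2, the thiolase of the step before it, fell by 1.13 on the log2 scale, and IDI1, the isomerase of isopentenyl pyrophosphate, by 0.93. The kinase PMVK, at 36.2 and 36.3 CPM in 786-M1A, against 31.7 and 29.7 CPM in 786-O, was not called (log2 fold change 0.24, adjusted p = 0.0925). ACAT2 overlaps a neighbouring gene and FDPS has processed pseudogenes, so counts of both are less certain.

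In the squalene and sterol arm, 8 of 9 genes were lower, also with a median of -0.87. TM7SF2 stood at 1.03 and 0.904 CPM in 786-M1A, against 3.63 and 3.58 CPM in 786-O (log2 fold change -1.90, SE 0.24, adjusted p = 0.000803). DHCR7, the reductase of the last step of its branch, was at 40 and 35.5 CPM in 786-M1A, against 112 and 109 CPM in 786-O (log2 fold change -1.55, SE 0.11, adjusted p = 3.84e-05). LSS, which closes the rings to lanosterol, was at 47.7 and 41.3 CPM in 786-M1A, against 108 and 106 CPM in 786-O. The libraries of both lines stood clear of each other for all 3 genes, as they did in this direction for 38.7% of all genes. NSDHL, which acts in removing methyl groups from the ring, was at 43.9 and 42.7 CPM in 786-M1A, against 44.5 and 43.4 CPM in 786-O, and was not called. HSD17B7, whose counts a near-identical copy can share, fell by 1.12.

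Among genes of fatty acid metabolism, the desaturase gene SCD had the largest fall of the 30, to 116 and 108 CPM in 786-M1A, against 984 and 1040 CPM in 786-O. Its log2 fold change was -3.17 (SE 0.19, adjusted p = 1.35e-05). ACACA and FASN, which make malonyl-CoA and palmitate, fell by 1.11 and 0.89 on the log2 scale, and FADS1 and FADS2, the desaturases of polyunsaturated fatty acids, by 0.59 and 0.91. LPIN1, a phosphatidate phosphatase, was at 45 and 42.6 CPM in 786-M1A, against 103 and 101 CPM in 786-O. ACLY, at 650 and 645 CPM in 786-M1A, against 719 and 694 CPM in 786-O, was not called (log2 fold change -0.13, adjusted p = 0.465). ELOVL6, which elongates palmitate, was the gene that rose, to 110 and 116 CPM in 786-M1A, against 69.4 and 70.5 CPM in 786-O (log2 fold change 0.69, SE 0.12, adjusted p = 0.00386). By role, 3 of 4 genes for acetyl-CoA supply and fatty acid synthesis were lower, and 4 of 5 genes for elongation, desaturation and phosphatidate were lower with 1 higher.

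Of these 26 calls, 19 were made whichever library was left out. The call of ELOVL6 was lost without 786-O replicate 1 (adjusted p = 0.0549) or 2 (0.053), and that of STARD4 without 786-M1A replicate 2 (0.0556) or 786-O replicate 2 (0.0535). Those of MVD, SQLE, CYP51A1, ACSS2 and FADS1 were lost without any 1 of the 4 libraries, at adjusted p from 0.0513 (CYP51A1 without 786-M1A replicate 2) to 0.299 (MVD without 786-M1A replicate 2).

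**Figure D2:**
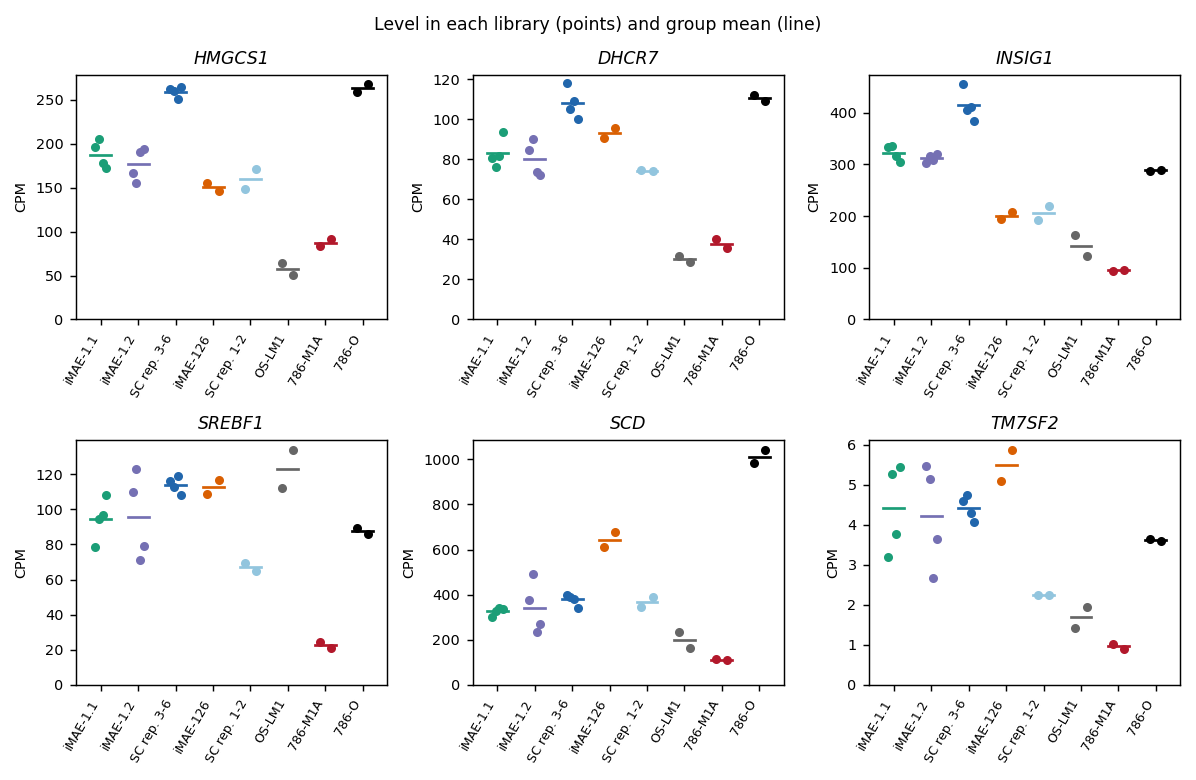
CPM of 6 genes in each library (points) with the mean of each group (line), with SC shown as replicates 1 and 2 and replicates 3 to 6. SCD lies at 116 and 108 CPM in 786-M1A and at 984 and 1040 CPM in 786-O, while TM7SF2 stays under 6 CPM in all libraries.

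Non-targeting CRISPRi cells had higher levels of most of the 30 genes than the unmodified cells they came from. In SC replicates 1 and 2, 20 genes were higher and 3 lower than in 786-M1A, where 55.7% of all 14769 genes were called and 27.2% were called higher. In SC replicates 3 to 6, 23 were higher and 6 lower, where 76.8% of all genes were called and 40.1% were called higher. The median log2 fold change over the 30 genes was 0.45 in SC replicates 1 and 2 and 0.78 in replicates 3 to 6, and over all genes 0.03 and 0.07. SC replicates 1 and 2 lay above both 786-M1A libraries for 23 of 30 genes (37.9% of all genes) and below for 4 (38.7%). For SC replicates 3 to 6 these were 22 (41.4%) and 6 (39.1%). Both comparisons share the 786-M1A libraries. Mean gene length in 786-M1A lay above that of every SC library, so that CRISPRi and whatever sets this length apart cannot be told apart here.

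SREBF1 stood at 69.7 and 65 CPM in SC replicates 1 and 2 and at 116, 113, 119 and 108 CPM in SC replicates 3 to 6, against 24.4 and 21.2 CPM in 786-M1A. Its log2 fold changes were 1.58 (SE 0.08, edgeR adjusted p = 1.01e-12) and 2.33 (SE 0.08, adjusted p = 7.09e-18). All 6 SC libraries lay above 786-M1A, and replicates 3 to 6 above replicates 1 and 2. INSIG1 was at 193 and 220 CPM in SC replicates 1 and 2 and at 456, 406, 411 and 385 CPM in replicates 3 to 6, against 94.2 and 96.1 CPM in 786-M1A (log2 fold changes 1.13 and 2.14). TM7SF2 was at 2.24 and 2.25 CPM and at 4.6, 4.74, 4.3 and 4.06 CPM in these SC libraries, against 1.03 and 0.904 CPM in 786-M1A (1.23 and 2.20). SCD, at 343 and 390 CPM in SC replicates 1 and 2 and 400, 391, 382 and 341 CPM in replicates 3 to 6, against 116 and 108 CPM in 786-M1A, differed from the other 3 in that the SC sets overlapped. Its log2 fold changes were 1.72 and 1.77. For HMGCS1 they were 0.89 and 1.59, and for SREBF2 0.46 and 0.55.

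Some of the 30 genes were lower in SC than in 786-M1A. ELOVL6 stood at 74 and 84.3 CPM in SC replicates 1 and 2 and at 76.9, 70.5, 69.6 and 68.1 CPM in replicates 3 to 6, against 110 and 116 CPM in 786-M1A (log2 fold changes -0.50 and -0.65). ACLY was at 473 and 460 CPM and at 409, 410, 389 and 391 CPM in these SC libraries, against 650 and 645 CPM in 786-M1A (-0.46 and -0.68). The SC libraries lay below both 786-M1A libraries for both genes. SCAP had log2 fold changes of -0.23 and -0.43 with adjusted p of 0.0159 and 4.72e-06, and the first call was lost without 786-M1A replicate 2 (0.0923) or SC replicate 2 (0.0986). PMVK, ACACA and FADS1 were called lower in SC replicates 3 to 6 (log2 fold changes -0.54, -0.44 and -0.23) and were not called in replicates 1 and 2, and with all 6 SC libraries as 1 group neither ACACA (-0.28, adjusted p = 0.156) nor FADS1 (adjusted p = 0.284) was called.

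The direction of 4 genes in SC replicates 3 to 6 depended on the unit. On log2(TPM + 1) with limma, the median of all genes moved to -0.23, and CYP51A1 went to -0.15 against 0.17 in edgeR, ACSS2 to -0.12 against 0.20, FADS2 to -0.05 against 0.30 and STARD4 to -0.26 against 0.08. STARD4 was called lower on that scale (limma adjusted p = 0.0102) and was not called by edgeR (adjusted p = 0.428). The edgeR call of CYP51A1 (adjusted p = 0.0297) was lost without 786-M1A replicate 1 (0.342), SC replicate 3 (0.241) or SC replicate 5 (0.234), and that of ACSS2 (0.0431) without any 1 of the 6 libraries (0.0524 to 0.22). Markers of other cell types moved here as well, at low levels. Of the 10 markers, 2 passed the count filter, ADIPOQ and PECAM1. Both were called higher in SC replicates 3 to 6, where 76.8% of all genes were called. ADIPOQ alone was called higher in SC replicates 1 and 2, where 55.7% of all genes were called. The 10 markers summed to 1.98 to 2.89 TPM in SC, against 1.3 and 1.31 TPM in 786-M1A. Their part in the result was not tested.

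**Figure D3:**
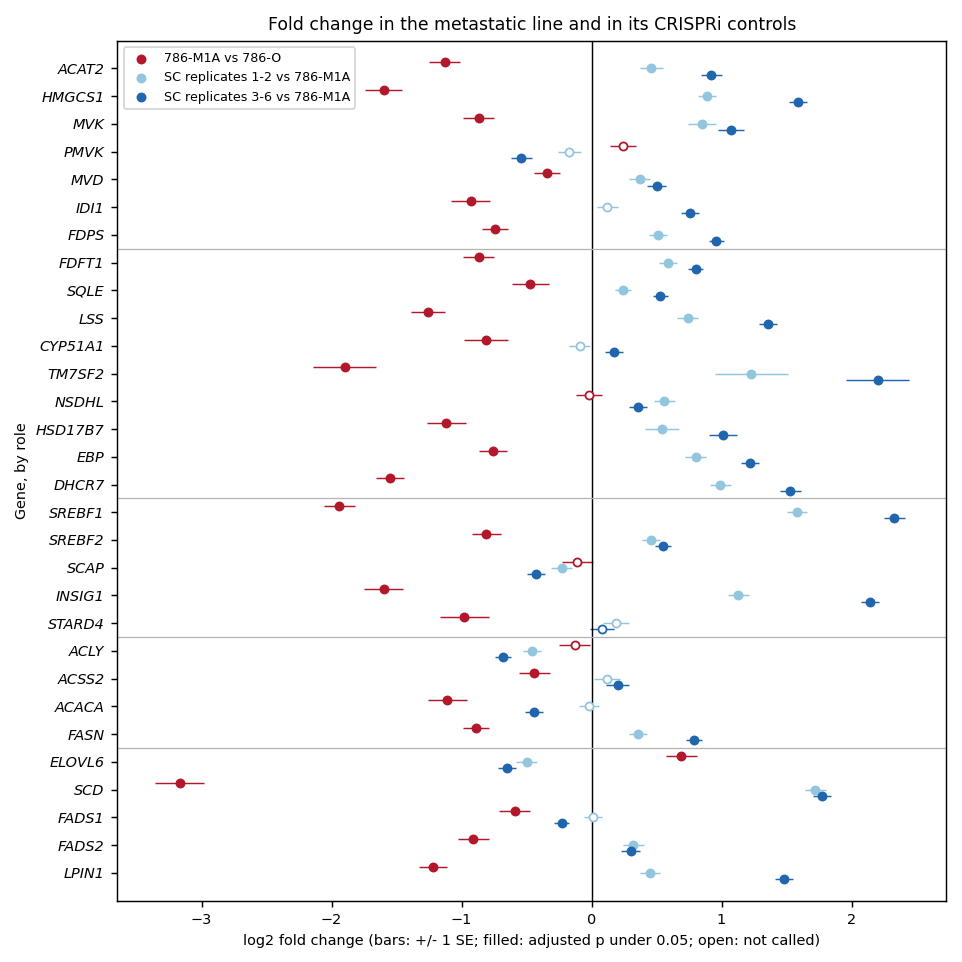
Log2 fold change with 1 SE of the 30 genes in 786-M1A against 786-O and in both sets of SC libraries against 786-M1A, with filled points for genes called at an adjusted p under 0.05. SCD has the lowest value in 786-M1A against 786-O, at -3.17, and SREBF1 the highest in SC replicates 3 to 6 against 786-M1A, at 2.33.

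The control libraries also differed among themselves, and PECAM1 was called higher in SC replicates 3 to 6 too (log2 fold change 0.92, adjusted p = 0.0325). In SC replicates 3 to 6, 16 of the 30 genes were higher and 4 lower than in SC replicates 1 and 2, and over all 15254 genes tested 45.2% were called and 22.1% were called higher. Replicates 3 to 6 all lay above replicates 1 and 2 for 19 of 30 genes (30.4% of all genes) and below for 6 (30.9%). LPIN1 stood at 115, 131, 116 and 123 CPM in SC replicates 3 to 6, against 56 and 62.8 CPM in SC replicates 1 and 2, with no overlap (log2 fold change 1.04, SE 0.15, edgeR adjusted p = 2.99e-05). INSIG1 had a log2 fold change of 1.01 (SE 0.08, adjusted p = 1.16e-08), TM7SF2 of 0.98 and SREBF1 of 0.76. The calls in the other direction were ACACA (-0.42), PMVK (-0.36), FADS1 (-0.24) and ACLY (-0.22). Leaving out SC replicate 1 ended the calls of TM7SF2 (0.0561), PMVK (0.124), ACLY (0.0642), FDFT1 (0.135), CYP51A1 (0.189) and HSD17B7 (0.0653). Without SC replicate 2 those of PMVK (0.0513), FADS1 (0.0791), HSD17B7 (0.058) and EBP (0.053) were lost, and without SC replicate 3 that of CYP51A1 (0.0555). On log2(TPM + 1) the split was 9 higher and 8 lower, the median was 0.00 over the 30 genes and -0.18 over all genes, and FDFT1 went to -0.04 (adjusted p = 0.729) against 0.22 in edgeR.

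Cells with either iMAE-1 guide had lower levels of sterol synthesis genes than SC cells of their library set, and the largest change left HMGCS1 at 0.68 times its SC level with iMAE-1.2. With iMAE-1.1, 9 of the 30 genes were lower and 0 higher, where 1.79% of all 15254 genes were called and 0.878% were called lower. With iMAE-1.2, 12 were lower and 0 higher, where 2.73% of all genes were called and 1.34% were called lower. The log2 fold change was below 0 for 29 of 30 genes with each guide, and its median was -0.26 with iMAE-1.1 and -0.28 with iMAE-1.2, against 0.00 over all genes in both. All 4 guide libraries lay below all 4 SC libraries for 12 of 30 genes with iMAE-1.1 (4.61% of all genes) and for 14 of 30 with iMAE-1.2 (5.31% of all genes). Both comparisons share SC replicates 3 to 6.

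The called genes were those of sterol synthesis and its regulators. In the mevalonate arm 3 of 7 genes were lower with each guide, in the squalene and sterol arm 4 of 9 with iMAE-1.1 and 6 of 9 with iMAE-1.2, and among regulators and sterol transport 2 of 5 and 3 of 5. Of the 9 genes for acetyl-CoA supply, fatty acid synthesis, elongation, desaturation and phosphatidate, 0 were called with either guide by edgeR, DESeq2 or limma. At an unadjusted edgeR p under 0.05 there were 1 of the 4 genes for acetyl-CoA and fatty acid synthesis and 2 of the other 5 with iMAE-1.1, and 2 of 4 and 0 of 5 with iMAE-1.2. The lack of a call did not always go with a small change. FADS2 was at 174, 187, 225 and 242 CPM with iMAE-1.1, against 281, 295, 286 and 245 CPM in SC replicates 3 to 6. These groups did not overlap, and the lowest log2 fold change of its role was -0.43. Whether the roles differ from each other was not tested.

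HMGCS1 stood at 196, 205, 178 and 172 CPM with iMAE-1.1 and at 167, 155, 191 and 194 CPM with iMAE-1.2, against 262, 260, 251 and 265 CPM in SC replicates 3 to 6. No library of either guide reached the lowest of SC replicates 3 to 6. The log2 fold changes were -0.48 (SE 0.07, edgeR adjusted p = 0.0018) and -0.56 (SE 0.07, adjusted p = 0.00028). INSIG1 was at 334, 335, 316 and 305 CPM with iMAE-1.1 and at 302, 317, 309 and 321 CPM with iMAE-1.2, against 456, 406, 411 and 385 CPM in these SC libraries. Its groups did not overlap either (-0.37 and -0.41, adjusted p = 0.00298 and 0.00107). SC replicates 1 and 2, of the other library set, were lower than SC replicates 3 to 6. They stood at 149 and 171 CPM for HMGCS1 and at 193 and 220 CPM for INSIG1. DHCR7 was at 80.6, 76.1, 81.9 and 93.8 CPM with iMAE-1.1 and at 84.8, 90.4, 73.6 and 72.2 CPM with iMAE-1.2, against 118, 105, 109 and 100 CPM in SC (-0.38 and -0.43). SQLE, which oxidises squalene, was at 179 to 189 CPM with iMAE-1.1 and 163 to 189 CPM with iMAE-1.2, against 227 to 238 CPM in SC (-0.33 and -0.40, adjusted p = 0.00191 and 0.000239).

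CYP51A1, the demethylase of lanosterol, stood at 77.2, 79.4, 74.5 and 70.9 CPM with iMAE-1.1, against 102, 95.4, 99.6 and 87.4 CPM in SC replicates 3 to 6, with no overlap (log2 fold change -0.36, adjusted p = 0.0109). With iMAE-1.2 its log2 fold change was -0.32, and replicate 4 of that guide, at 87.6 CPM, overlapped SC. LSS was at 93.2, 97.4, 65.7 and 75.2 CPM with iMAE-1.2, against 110, 121, 114 and 110 CPM in SC, again with no overlap (-0.46, adjusted p = 0.0465). With iMAE-1.1 its change was about as large (-0.47) but was not called (adjusted p = 0.052). FDPS, FDFT1, the synthase of squalene, and SREBF2 were lower with both guides (log2 fold changes -0.26 to -0.32). ACAT2 was called with iMAE-1.1 (-0.33) and not with iMAE-1.2 (-0.29, adjusted p = 0.0665), and MVD, NSDHL and STARD4 were called with iMAE-1.2 (-0.28, -0.40 and -0.38) and not with iMAE-1.1 (-0.14, -0.26 and -0.26). SREBF1 was not called with iMAE-1.1 (-0.28, adjusted p = 0.45) or iMAE-1.2 (-0.25, adjusted p = 0.463), nor was SCAP (-0.03 and -0.07).

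The calls of HMGCS1, SQLE and INSIG1 held whichever library was left out with both guides, and with iMAE-1.2 also those of FDPS, FDFT1 and DHCR7. With iMAE-1.1 the count of 9 fell to 3 without SC replicate 3, 5 without SC replicate 5 and 5 without iMAE-1.1 replicate 2. DHCR7 was lost in each of these (adjusted p = 0.0767, 0.0569 and 0.0624), and CYP51A1 (0.0695) and FDPS (0.0523) without SC replicate 3. ACAT2 was lost without any 1 of the 8 libraries but iMAE-1.1 replicate 1 (0.065 to 0.203), SREBF2 without any but iMAE-1.1 replicate 4 (0.0549 to 0.147), and FDFT1 without SC replicate 3, 4 or 5 or iMAE-1.1 replicate 2, 3 or 4 (0.0505 to 0.0909). With iMAE-1.2 the count of 12 fell to 6 without SC replicate 3, 4 or 5. LSS was lost without any 1 SC library or without iMAE-1.2 replicate 3 or 4 (0.0657 to 0.124), and CYP51A1 without SC replicate 3, 4 or 5 (0.0562 to 0.0805). MVD was lost without any library but iMAE-1.2 replicate 4, NSDHL without any but replicate 3, STARD4 without any but replicate 2, and SREBF2 without any but replicate 2 or SC replicate 6 (0.0538 to 0.158 over these 4 genes). With all 6 SC libraries as 1 group, 0 genes were called with iMAE-1.1 and 1, NSDHL, with iMAE-1.2. The log2 fold changes were then -0.28 and -0.36 for HMGCS1 with iMAE-1.1 and iMAE-1.2 (edgeR adjusted p = 0.324 and 0.2), -0.11 and -0.15 for INSIG1 (0.785 and 0.672) and -0.22 and -0.27 for DHCR7 (0.35 and 0.248). CYP51A1 was at -0.27 with iMAE-1.1 (0.163) and LSS at -0.27 with iMAE-1.2 (0.334). With the closest SC libraries summed (3 with 5, 4 with 6) 2 and 3 were called.

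No gene of the 30 was called between the iMAE-1 guides. With iMAE-1.2 against iMAE-1.1, edgeR called 0 of 30 genes and 0% of all genes, DESeq2 and limma also called 0 of the 30, and 218 of 15254 genes, none of them a member, had an unadjusted p under 0.05. MVD had the lowest p of the 30, at 53.3, 52.3, 52.4 and 59.7 CPM with iMAE-1.2, against 65.4, 64.7, 50.1 and 60.3 CPM with iMAE-1.1, which overlap (log2 fold change -0.14, SE 0.08). NSDHL was next, at 36.6, 38.3, 49.5 and 42.5 CPM with iMAE-1.2, against 55, 43.9, 42.4 and 43.3 CPM with iMAE-1.1 (-0.14, SE 0.09). Among the iMAE-1.2 libraries some genes split by pairs. SREBF1 was at 110 and 123 CPM in iMAE-1.2 replicates 1 and 2 and at 71.2 and 78.9 CPM in replicates 3 and 4, and FADS2 at 264 and 295 CPM and at 155 and 159 CPM. The deviations of iMAE-1.2 replicates 1 and 2 from their group mean correlated across genes with those of iMAE-1.1 replicates 3 and 4 (r = 0.24 to 0.52), and those of iMAE-1.2 replicates 3 and 4 with iMAE-1.1 replicates 1 and 2 (0.16 to 0.53), while same-numbered libraries gave -0.47 to -0.25. The fit leaves this shared variation in the spread between libraries, and a block along these pairs was not fitted.

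**Figure D4:**
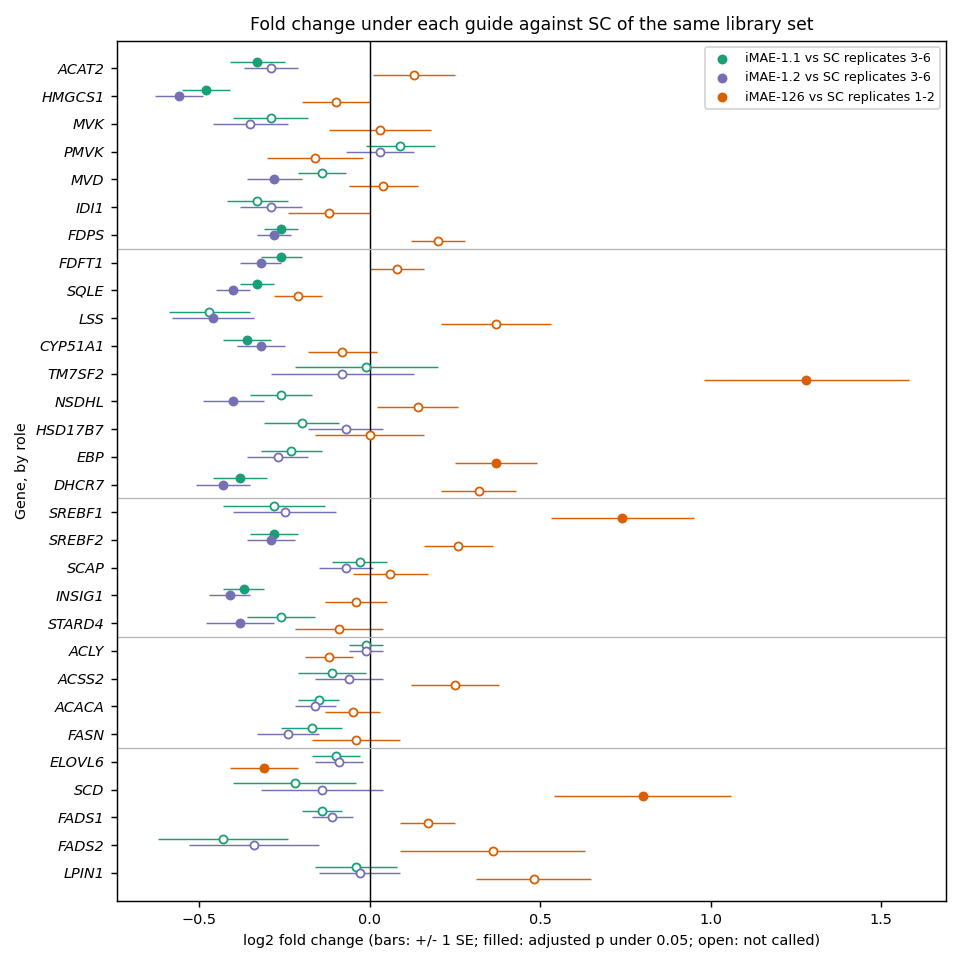
Log2 fold change with 1 SE of the 30 genes for iMAE-1.1 and iMAE-1.2 against SC replicates 3 to 6 and for iMAE-126 against SC replicates 1 and 2, with filled points for genes called at an adjusted p under 0.05. With either iMAE-1 guide 29 of 30 points lie below 0, and with iMAE-126 19 of 30 lie above 0.

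With the guide iMAE-126 a few genes were higher and 1 was lower than in SC replicates 1 and 2. Of the 30 genes 4 were higher and 1 lower, where 16.7% of all genes were called and 6.31% were called higher. These shares are close to each other, 16.7% of the 30 genes and 16.7% of all genes. Both iMAE-126 libraries lay above both SC libraries for 15 of 30 genes (31.4% of all genes) and below them for 5 (31% of all genes). Mean gene length was 3528 and 3573 bases with iMAE-126, against 3646 and 3716 bases in these SC libraries, and its part in the result was not tested.

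TM7SF2 stood at 5.1 and 5.87 CPM with iMAE-126, against 2.24 and 2.25 CPM in SC replicates 1 and 2 (log2 fold change 1.28, SE 0.30, edgeR adjusted p = 0.00795). SCD was at 609 and 676 CPM with iMAE-126, against 343 and 390 CPM in SC (0.80, SE 0.26, adjusted p = 0.0499), and SREBF1 at 109 and 117 CPM with iMAE-126, against 69.7 and 65 CPM in SC (0.74, SE 0.21, adjusted p = 0.026). The groups did not overlap for any of these 3 genes, as was so in this direction for 31.4% of all genes. EBP, the sterol isomerase, was at 107 and 118 CPM with iMAE-126, against 91.2 and 83 CPM in SC (0.37, SE 0.12, adjusted p = 0.0439). ELOVL6 was lower, at 62.4 and 65.4 CPM with iMAE-126, against 74 and 84.3 CPM in SC (-0.31, SE 0.10, adjusted p = 0.0395). SREBF2 (0.26, adjusted p = 0.0751), SCAP (0.06), INSIG1 (-0.04) and HMGCS1 (-0.10) were not called.

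Each of these 5 calls was lost when some library was left out, where a lone remaining library was assumed to vary like those of the other groups. TM7SF2 was lost without SC replicate 2 (adjusted p = 0.0597) or iMAE-126 replicate 2 (0.0583), ELOVL6 without SC replicate 2 (0.298) or either iMAE-126 library (0.205 and 0.102), and SCD, SREBF1 and EBP without any 1 of the 4 (0.0617 to 0.254). The count was 1 without iMAE-126 replicate 1, 0 without iMAE-126 replicate 2, 2 without SC replicate 1 and 0 without SC replicate 2. With all 6 SC libraries as 1 group, 6 genes were called, with INSIG1 (-0.79, adjusted p = 0.0445) and HMGCS1 (-0.60, adjusted p = 0.0431) among those lower, and TM7SF2 (0.57, adjusted p = 0.22), SREBF1 (0.19, adjusted p = 0.614), EBP (0.07, adjusted p = 0.792) and ELOVL6 (-0.22, adjusted p = 0.135) not called. Of 10 markers of other cell types 3 passed the count filter and 1, PECAM1, was called higher, where 16.7% of all genes were called. The 10 summed to 3.43 and 3.84 TPM with iMAE-126, against 1.98 to 2.89 TPM over the 6 SC libraries. CD3E was at 0 in all libraries, and the part of these markers in the result was not tested.

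The effect of iMAE-126 was tested against the mean effect of the iMAE-1 guides, each relative to its own SC libraries. For 13 of the 30 genes the difference was positive and for 0 negative, where 11.9% of all genes were called and 4.42% were called with a positive difference. The median difference was 0.35 over the 30 genes and 0.00 over all genes. A positive difference does not by itself mean a higher level with iMAE-126, since lower levels with the iMAE-1 guides also give one. Of the 13 genes, TM7SF2, SREBF1 and EBP were also called higher with iMAE-126 against its SC libraries, and the others were not. The SC libraries differed too, with 16 of the 30 genes higher in SC replicates 3 to 6 than in replicates 1 and 2. DHCR7 differed by 0.72 on the log2 scale (SE 0.13, edgeR adjusted p = 0.00224), with 90.7 and 95.5 CPM with iMAE-126, against 74.7 and 74 CPM in SC replicates 1 and 2, while both iMAE-1 guides were below their SC libraries. TM7SF2 differed by 1.32 (SE 0.35, adjusted p = 0.0204), SREBF1 by 1.01 (SE 0.24, adjusted p = 0.0172) and LSS by 0.84 (SE 0.19, adjusted p = 0.0115). SREBF2 (0.54, adjusted p = 0.00552) and FDPS (0.47, adjusted p = 0.00244) were, with DHCR7, the 3 genes called whichever library was left out. SCD differed by 0.99 and was not called (adjusted p = 0.051).

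The calls of the other differences were each lost with more than 1 choice of the library left out. In those fits the log2 difference was 1.21 to 1.33 for TM7SF2, 0.95 to 1.05 for SREBF1 and 0.76 and 0.79 for LSS. TM7SF2 was lost without SC replicate 1 (adjusted p = 0.0691), SC replicate 2 (0.0818) or iMAE-126 replicate 2 (0.0913), SREBF1 without SC replicate 2 (0.0871) or iMAE-126 replicate 1 (0.0502) or 2 (0.0684), and LSS without SC replicate 2 (0.0741) or iMAE-126 replicate 1 (0.0584). The count of 13 was 5 without iMAE-126 replicate 1, 4 without its replicate 2, 6 without SC replicate 1, 4 without SC replicate 2, and 8 without SC replicate 3 or 4. PECAM1 also differed here, by 1.36 (adjusted p = 0.0422).

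**Figure D5:**
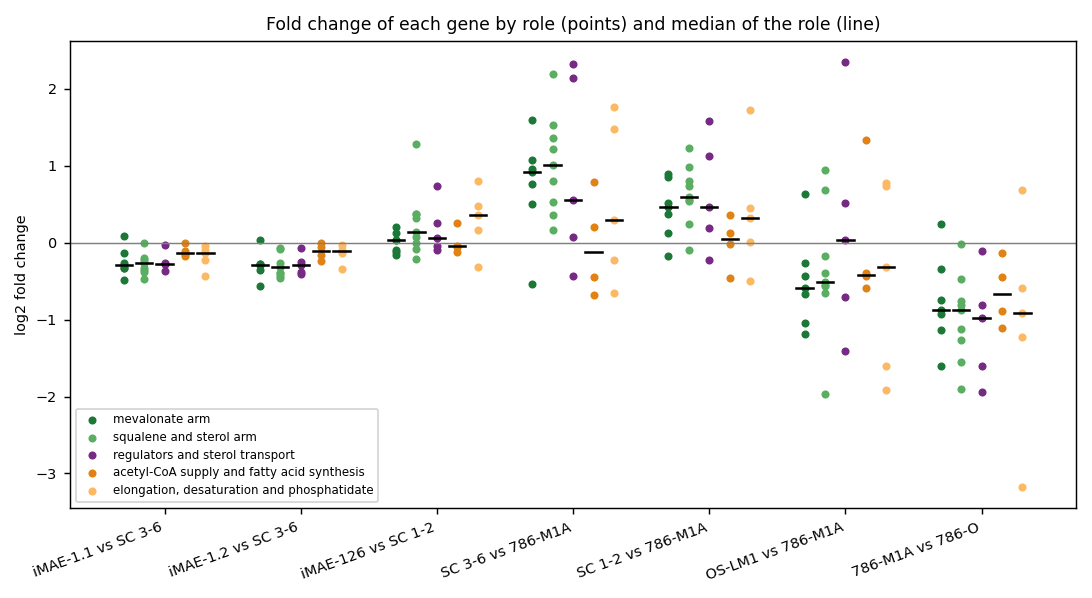
Log2 fold changes of the genes of each role (points) with their median (line) in 7 comparisons. In 786-M1A against 786-O the role medians lie between -0.98 and -0.67, and with either iMAE-1 guide the medians of the fatty acid roles lie between -0.14 and -0.11.

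OS-LM1 had lower levels of most of these genes than both lines of the 786-O lineage, while SREBF1 and ACSS2 were higher than in both. Against 786-M1A 8 genes were higher and 20 lower, where 68.7% of all 16354 genes were called and 34.3% were called lower. Against 786-O 2 were higher and 25 lower, where 63.6% of all genes were called and 33.3% were called lower. The median log2 fold change over the 30 genes was -0.43 against 786-M1A and -1.27 against 786-O, and over all genes 0.04 and -0.01. Both OS-LM1 libraries lay above both 786-M1A libraries for 8 of 30 genes (46% of all genes) and below them for 21 (38.6%). Against both 786-O libraries these were 3 (43.9%) and 27 (39.3%). The comparisons share the OS-LM1 libraries, and the second shares those of 786-O with the comparison of 786-M1A.

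SREBF1 stood at 112 and 134 CPM in OS-LM1, against 24.4 and 21.2 CPM in 786-M1A, against 89.6 and 85.7 CPM in 786-O. Its log2 fold change was 2.35 against 786-M1A (SE 0.13, edgeR adjusted p = 2.06e-06) and 0.40 against 786-O (adjusted p = 0.0165), and the call against 786-O was lost without 786-O replicate 1 (0.0839) or 2 (0.131). ACSS2, which makes acetyl-CoA from acetate, was at 46.3 and 57.6 CPM in OS-LM1, against 19.6 and 19.4 CPM in 786-M1A, against 26 and 26.7 CPM in 786-O (1.33 and 0.89). Both genes were above all libraries of both other lines. For each line taken apart, 46% of all genes lay so against 786-M1A and 43.9% against 786-O. EBP, at 92.4 and 115 CPM in OS-LM1, against 50.7 and 50.7 CPM in 786-M1A, and LPIN1, at 85.3 and 73.6 CPM in OS-LM1, against 45 and 42.6 CPM in 786-M1A, were higher than in 786-M1A (0.94 and 0.78).

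SQLE stood at 50.1 and 37.2 CPM in OS-LM1, against 162 and 162 CPM in 786-M1A, against 222 and 226 CPM in 786-O (log2 fold changes -1.97 and -2.44). FADS2 was at 85.9 and 72.5 CPM in OS-LM1, against 232 and 223 CPM in 786-M1A, against 431 and 425 CPM in 786-O (-1.60 and -2.51). STARD4 was at 10.3 and 6 CPM in OS-LM1, against 21.2 and 20.5 CPM in 786-M1A, against 40.5 and 42.1 CPM in 786-O (-1.41 and -2.39). For all 3 genes both OS-LM1 libraries lay below all others of the lines. A gap to each line taken apart was common over all genes (38.6% against 786-M1A and 39.3% against 786-O). The share below both lines at once was not computed. ELOVL6, the gene that was higher in 786-M1A than in 786-O, was lowest in OS-LM1 at 35 and 28.2 CPM (-1.91 against 786-M1A and -1.22 against 786-O). SCD, at 233 and 162 CPM in OS-LM1, lay above 786-M1A (0.74) and below 786-O (-2.43).

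Leaving out 786-M1A replicate 1 reduced the count of 28 against 786-M1A to 18, and leaving out its replicate 2 to 19. Of the genes given here with values, SCD was lost against 786-M1A without 786-M1A replicate 2 (adjusted p = 0.0502). Of the 10 markers of other cell types, 4 passed the count filter. PECAM1, ADIPOQ and GFAP were called higher against 786-M1A, where 68.7% of all genes were called. The 10 summed to 2.42 and 3.54 TPM in OS-LM1, against 1.3 and 1.31 TPM in 786-M1A. Against 786-O, at 1.65 and 2.03 TPM, PECAM1 was called higher, where 63.6% of all genes were called. Mean gene length was 3617 and 3391 bases in OS-LM1, below both other lines. The part of these values in the results was not tested.

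Other genes of lipid metabolism, in lists written with earlier results of these data known, were read beside the 30. Between 786-M1A and 786-O, 2 of 17 tested genes of the rest of the sterol pathway were higher and 6 lower, with a median log2 fold change of -0.34. Over all genes tested, 14.7% were called higher and 16.3% lower. C14orf1 was lower, at 15.4 and 17.8 CPM in 786-M1A, against 23.4 and 24.2 CPM in 786-O (-0.52, edgeR adjusted p = 0.00821). INSIG2, a relative of INSIG1, was higher, at 26.4 and 26.9 CPM in 786-M1A, against 20.2 and 20.2 CPM in 786-O (0.40, adjusted p = 0.0435). The libraries of both lines did not overlap for either gene. That was common, as 36.6% of all genes lay wholly higher and 38.7% wholly lower in 786-M1A.

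Of 7 tested genes of sterol export and LXR targets, 1 was higher and 2 were lower in 786-M1A (median -0.45). MYLIP, a ubiquitin ligase induced by LXR, was at 2.81 and 2.78 CPM in 786-M1A, against 11.7 and 12 CPM in 786-O (log2 fold change -2.08, edgeR adjusted p = 3.77e-05). LPCAT3 fell by 0.83, and SOAT1, which esterifies cholesterol, rose by 0.49. Of 20 other genes of fatty acid synthesis and handling, 3 were higher (ACSL1 1.49, MCAT 0.48, ELOVL1 0.45) and 5 lower, among them ELOVL7 (-2.84), PNPLA3 (-1.37) and MID1IP1 (-0.76), with a median of -0.21. Of 14 genes of fatty acid oxidation, 2 were higher and 3 lower, with a median of -0.07. The shares called were 42.9% for sterol export, 40% for fatty acid synthesis and 35.7% for oxidation, against 31% of all genes. The carnitine transferase gene CPT1A was higher, at 30.6 and 28.8 CPM in 786-M1A, against 14 and 13.8 CPM in 786-O (adjusted p = 0.000261), as was SLC25A20 (0.63). PPARGC1A, a coactivator of mitochondrial genes, had 18 counts in 786-M1A, against 1146 counts in 786-O (-6.16), and ACADS (-0.68) and CPT2 (-0.53) were the others.

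With the iMAE-1 guides few genes of these lists were called, where 1.79% of all genes were called with iMAE-1.1 and 2.73% with iMAE-1.2. With iMAE-1.1, SC5D (log2 fold change -0.43, edgeR adjusted p = 0.00668) was lower of 17 other sterol genes, HSD17B12, which acts in fatty acid elongation, was higher (0.41) and ACSL3 lower (-0.31) of 20, CPT1A was lower (-0.47) of 14, and 0 of 7 genes of sterol export were called by edgeR, DESeq2 or limma (1 had an unadjusted p under 0.05). With iMAE-1.2, CPT1A was lower (-0.39, adjusted p = 0.0426), HSD17B12 was higher (0.45), and 0 of 7 genes of sterol export were called by edgeR, DESeq2 or limma (1 at an unadjusted p under 0.05). Of 17 other sterol genes, 1 was lower with iMAE-1.2. With iMAE-126, 3 of 17 other sterol genes, 2 of 7 genes of sterol export, 6 of 20 of fatty acid synthesis and 1 of 14 of oxidation were called, where 16.7% of all genes were. HSD17B12 was lower (-0.55, adjusted p = 0.0029), at 22.3 and 20.9 CPM with iMAE-126, against 28.4 and 34.8 CPM in SC replicates 1 and 2. Also lower were MBTPS2 (-0.61), a protease that releases SREBP, LBR (-0.43), a sterol reductase, ABCA1 (-0.31), ACSL4 (-0.53), ACSL1 (-0.36), ELOVL5 and ME1, while NPC2 (0.34), LPCAT3 (0.41), SLC25A1 (0.35) and ACADS (0.63) were higher.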

How the data were processed

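Stranded poly(A) libraries (dUTP marking, 15 PCR cycles) were made from cells at 80% confluence, per the labels' protocols. Bowtie2, RSEM and hg19 are named in the submitters' processing notes. Their versions, their settings and the strand used in counting are not stated in the labels or files. Per the file headers, each deposited expected count comes from the authors' run of RSEM, and 27.2% to 31.2% of a library's values were not whole. The deposited TPM values are the authors' length-scaled RSEM values, per the file headers.

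After rounding, expected counts entered robust quasi-likelihood fits of edgeR 4.0.16 (R 4.3.3) with TMM factors, genes kept by filterByExpr (minimum count 10) and Benjamini-Hochberg adjustment over all genes tested. Of 3 fits, 1 held the 16 CRISPRi libraries (11 residual degrees of freedom), 1 the 6 line libraries (3) and 1 those of SC and 786-M1A (5). SE is the log2 fold change divided by the square root of F. Library sets were found from mean gene length, so SC was split into replicates 1 and 2 and replicates 3 to 6. Tests on simulated data preceded the fits. Alternatives used DESeq2 1.42.0, limma 3.58.1 on log2(TPM + 1), RLE factors, other count filters, a log2 threshold of 0.5 (glmTreat), pooled SC, the compared groups alone, replicate number as a block, each library left out, and, added after seeing the data, summed SC pairs and a crossed block. Named were up to 4 called genes per direction and comparison with the largest change, SREBF1, SREBF2, SCAP, INSIG1 and HMGCS1 throughout, the 2 lowest p where 0 were called, and up to 3 called genes per other list and direction. Some genes of the other lists are counted there but not reported here by name. Other genes with values, such as SQLE, LSS, DHCR7, FDPS and LPIN1, were chosen after their values were seen, as examples of a role. The 30 genes, the lists and the comparisons were chosen with earlier results of these data known. The other lists held 20, 8, 21 and 15 genes, of which 18, 8, 21 and 15 were found by symbol. Replicates differed by more than counting noise (mean chi-square per gene 2.24 to 30.2). Python 3.11.15, pandas 2.3.3, numpy 2.4.6 and matplotlib 3.10.9 were used for tables and figures.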

Additional observations from a re-analysis of the deposited data

Results flagged for a closer look

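In 4 of 90 sets of 4 or 6 libraries examined, 1 library stood apart from the rest of its group, and chance gives about 1 in 20. ACAT2 was at 59.7 CPM in iMAE-1.1 replicate 1, against 47 to 48.9 CPM in the other libraries of that guide. NSDHL was at 55 CPM in the same library, against 42.4 to 43.9 CPM in the others. MVD was at 59.7 CPM in iMAE-1.2 replicate 4, against 52.3 to 53.3 CPM. FADS2 was at 245 CPM in SC replicate 6, against 279 to 295 CPM in the other SC libraries.

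For 13 genes the effect of iMAE-126 relative to SC replicates 1 and 2 differed from the mean effect of both iMAE-1 guides relative to SC replicates 3 to 6, by the test of the difference itself in edgeR. The differences on the log2 scale were 1.32 for TM7SF2, 1.01 for SREBF1, 0.84 for LSS, 0.72 for DHCR7, 0.61 for EBP, 0.54 for SREBF2, 0.47 for FDPS, 0.47 for NSDHL, 0.44 for ACAT2, 0.42 for HMGCS1, 0.36 for FDFT1, 0.35 for INSIG1 and 0.30 for FADS1. The groups compared lie in different library sets, and for 10 of the 13 the call was lost without at least 1 library. EBP was lost without SC replicate 2 (adjusted p = 0.0719) or iMAE-126 replicate 2 (0.0642), and FDFT1 without SC replicate 1 or 2 or either iMAE-126 library (0.0542 to 0.0832). ACAT2, HMGCS1, NSDHL, INSIG1 and FADS1 were lost without SC replicate 1, either iMAE-126 library or several others (0.0501 to 0.196).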

How the results depend on the processing

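Over the planned and added settings, 129 recomputed counts of called genes stayed within 1.5 times the reported count and 38 did not. The 129 include counts that stayed at 0 where 0 was reported, between the iMAE-1 guides, which say little about stability. For each named gene and comparison, only the left-out fit with the highest adjusted p was counted, and the glmTreat setting was not. Of the recomputed fold changes of named genes so counted, 620 stayed on their side of the threshold, 69 lost the call and 4 gained it. Of these, INSIG1 and SCAP with iMAE-126, not called, changed sign with 1 library left out (0.01 and -0.01). Outside these genes, STARD4 in SC replicates 3 to 6 against 786-M1A changed sign and was called on log2(TPM + 1) (-0.26, limma adjusted p = 0.0102). The replicate number as a block gave 0 called genes for iMAE-1.1 (9 reported), 0 for iMAE-1.2 (12), 1 for iMAE-126 (5), 3 for the difference of effects (13), 24 for 786-M1A against 786-O (26), 25 for OS-LM1 against 786-M1A (28), 27 against 786-O (27) and 23 for SC replicates 1 and 2 against 786-M1A (23). In the CRISPRi fit this block also tied same-numbered libraries of both iMAE-1 guides, whose deviations correlated at -0.47 to -0.25. A block along their crossed pairs was not fitted. Same-numbered libraries did not pair with SC either: their deviations correlated at 0.06 and 0.04 (iMAE-1.1 with SC), 0.15 and -0.01 (iMAE-1.2 with SC) and -0.02 (iMAE-126 with SC). Those of OS-LM1 and 786-M1A correlated at -0.21, and a crossed block gave 27. A log2 threshold of 0.5 (glmTreat) gave 0 for iMAE-1.1, 0 for iMAE-1.2, 0 for iMAE-126, 0 for the difference of effects, 3 for SC replicates 3 to 6 against 1 and 2 (20 reported), 9 and 18 for both SC sets against 786-M1A (23 and 29) and 11 for OS-LM1 against 786-M1A. Pooled SC gave 0 for iMAE-1.1 and 1 for iMAE-1.2, and summed SC pairs gave 2 and 3. For iMAE-126, its groups alone gave 13, DESeq2 8, a minimum count of 50 8 and no filter 3, and limma on TPM gave 8 for the difference of effects. With 1 library left out the counts ran from 3 to 9 (iMAE-1.1), 6 to 10 (iMAE-1.2), 0 to 2 (iMAE-126), 4 to 14 (difference of effects), 14 to 20 (SC sets), 19 to 21 (786-M1A against 786-O), 18 to 29 (OS-LM1 against 786-M1A) and 25 to 29 (against 786-O). The causes were not tested. A block could not be fitted where groups share no replicate numbers. Depth limits TM7SF2 most, at under 6 CPM.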
